A study of Mus musculus with 12 samples.

Results

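The report concerns 35 mouse genes of the antioxidant programme that is controlled by the transcription factor NRF2, together with genes of glutathione, thioredoxin and NADPH metabolism. The members were chosen by name for their roles, with earlier results of these data known. All 35 were found by symbol among 55421 gene identifiers. They cover 4 genes of NRF2 and its regulators, 4 of glutathione synthesis and recycling, and 7 glutathione peroxidases and detoxifying enzymes. A further 9 belong to the thioredoxin and peroxiredoxin system, 6 supply NADPH, and 5 handle superoxide, hydrogen peroxide and haem.

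The libraries came from 2 cultured mouse lines. ID8 is an ovarian cancer line that arose from mouse ovarian surface epithelium, labelled C57BL6J wild type. PMJ2R is a peritoneal macrophage line of the same strain, immortalised with the v-raf and v-myc oncogenes, which its control cells carry too. The 4 groups were ID8 with rebastinib, ID8 control, PMJ2R with rebastinib and PMJ2R control, with 3 libraries each. Rebastinib, a kinase inhibitor directed at the angiopoietin receptor TIE2, was given at 5 nM for 6 h, and the labels name no vehicle for the control. Each group is a single line, and the lines were grown in different media, ID8 with a supplement named ITS, so line and medium cannot be told apart.

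NRF2, encoded by Nfe2l2, is held at a low level in resting cells by KEAP1, an adaptor that passes it to a ubiquitin ligase. Electrophiles and oxidants modify KEAP1, and NRF2 then accumulates, pairs with a small MAF protein and binds antioxidant response elements of genes that make glutathione, reduce thioredoxin and supply NADPH. Much of this control acts on the protein, so transcript levels of Nfe2l2 and Keap1 do not measure NRF2 activity.

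The core of the antioxidant response element, TGACNNNGC, was searched on both strands in the 250 bases before each RefSeq gene start (GRCm38.p6). A window was found for 30 of the 35 members, and 8 of those 30 (26.7%) held the motif, against 3112 of 27025 mouse genes (11.5%). No other motif was searched. The windows of 6 of these 8 are shown. They are those of the genes chosen by their p, fold change or role for values in every library; Txnrd1 and G6pdx were not among these. Each is written 5′ to 3′ on the strand of its gene with the motif in capitals; GCNNNGTCA is the motif on the opposite strand.
Nfe2l2, chr2:75704869-75704913, minus strand, motif beginning 240 bases before the start: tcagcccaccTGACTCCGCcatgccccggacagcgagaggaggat
Mafg, chr11:120633735-120633795, minus strand, motif beginning 222 bases before the start: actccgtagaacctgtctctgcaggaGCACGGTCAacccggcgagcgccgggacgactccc
Gclm, chr3:122245397-122245457, plus strand, motif beginning 134 bases before the start: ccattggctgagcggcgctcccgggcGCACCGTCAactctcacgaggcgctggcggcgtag
Mgst1, chr6:138140445-138140505, plus strand, motif beginning 56 bases before the start: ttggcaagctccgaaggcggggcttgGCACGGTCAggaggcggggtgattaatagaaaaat
Prdx1, chr4:116685440-116685500, plus strand, motif beginning 133 bases before the start: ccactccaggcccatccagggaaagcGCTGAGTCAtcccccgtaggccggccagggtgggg
Sod1, chr16:90220680-90220740, plus strand, motif beginning 56 bases before the start: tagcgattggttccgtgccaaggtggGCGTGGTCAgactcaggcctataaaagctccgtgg
In Nfe2l2 the motif lies on the strand of the gene, and in the other windows shown it lies on the opposite strand. Txnrd1 and G6pdx also held the motif. All 6 genes shown were called higher in ID8 with rebastinib, in part because of how they were chosen. Txnrd1 was called higher in both lines and G6pdx was called in neither. Whether the motif goes with the response was not tested. A match describes these letters alone, since no binding was measured.

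Library totals ran from 19025504 to 27070556 counts. All 10 macrophage markers were above 1 CPM (counts scaled to a common library size) in PMJ2R, and all 10 ovarian surface markers were above it in ID8 control and below it in PMJ2R. In ID8 the macrophage markers summed to 32.7 to 38.0 CPM with rebastinib and 13.8 to 15.3 CPM in control, with Adgre1, Itgam, Laptm5, Lyz2 and Spi1 at 0 in both, and 10 lymphocyte and endothelial markers each stayed under 1 CPM in every group. Among the last was Tek, the gene of TIE2, at 0 counts in both ID8 groups and under 1 CPM in both PMJ2R groups. The macrophage markers summed to 3464 to 3553 CPM with rebastinib and 2220 to 2332 CPM in control in PMJ2R. The ovarian surface markers summed to 3030 to 3346 CPM with rebastinib and 3543 to 3841 CPM in control in ID8. Single markers did not all follow these sums. By the test used below, 8 macrophage markers rose in PMJ2R and 2 fell (Csf1r and Fcgr1). In ID8, 3 ovarian surface markers rose, 5 fell and 2 did not pass the test. Genes overlapping ribosomal RNA took 1.05 to 1.60% of counts in ID8 rebastinib libraries and 0.106 to 0.355% in ID8 control libraries. In PMJ2R they took 5.63 to 5.99% with rebastinib and 0.0927 to 0.172% in control. Ribosomal protein genes took 8.57 to 10.6% with rebastinib and 4.66 to 5.38% in control in ID8, and 7.59 to 7.90% with rebastinib and 4.98 to 5.75% in control in PMJ2R. Mitochondrial genes took 4.54 to 4.91% with rebastinib and 2.80 to 3.02% in control in ID8, and 5.10 to 5.41% with rebastinib and 3.23 to 3.99% in control in PMJ2R. For each of these sums and shares the rebastinib libraries of a line did not overlap its control libraries. The part of these shifts in the results was not tested. Fewer cells of a type and less RNA per cell cannot be told apart in such bulk libraries.

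With rebastinib, most of the members rose in both lines under the main scaling (TMM). Scaled by library totals alone, 20 of 35 rose in ID8, but only 15 of 33 in PMJ2R, where 14 fell. The counts that follow are under TMM scaling. In ID8, 30 of 35 members rose and 3 fell (the sulfiredoxin gene Srxn1, the NADPH-supplying isocitrate dehydrogenase gene Idh1 and Keap1), while Gsr and G6pdx did not pass the test. Their median log2 fold change was 0.72, beside -0.07 over all 14829 tested genes. In PMJ2R, 22 of 33 tested members rose and 7 fell (Keap1, Gclc, Idh1, Srxn1, Pgd, Slc48a1 and Gsr), with a median of 0.62 beside -0.05 over 14010 genes. Gsta4 and Mgst1 had too few counts in PMJ2R to be tested there.

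These counts stand against very broad changes. At an adjusted p under 0.05 (edgeR's quasi-likelihood test), 80.4% of all tested genes were called in ID8, 38.4% higher and 42.0% lower. In PMJ2R 83.7% were called, 40.1% higher and 43.6% lower. The rebastinib and control libraries overlapped for 1 of 35 members in ID8 and 4 of 33 in PMJ2R, none of them called. Over all genes, called or not, they did not overlap for 82.2% in ID8 and 84.3% in PMJ2R. When counts were scaled by library totals alone, the median of all genes moved by -0.43 in ID8 and -0.56 in PMJ2R, and all calls became 3540 higher and 8475 lower in ID8 (5687 and 6230 under TMM scaling) and 3104 higher and 8677 lower in PMJ2R (5623 and 6107). Under that scaling 20 members rose and 8 fell in ID8, and 15 rose and 14 fell in PMJ2R. Under TMM scaling, 31 of 35 members in ID8 and 26 of 33 in PMJ2R lay above the median of all genes. Library totals gave the same counts, but rescaling shifts all genes and their median by about the same amount. The equal counts therefore say nothing about the choice of scaling.

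**Figure D1:**
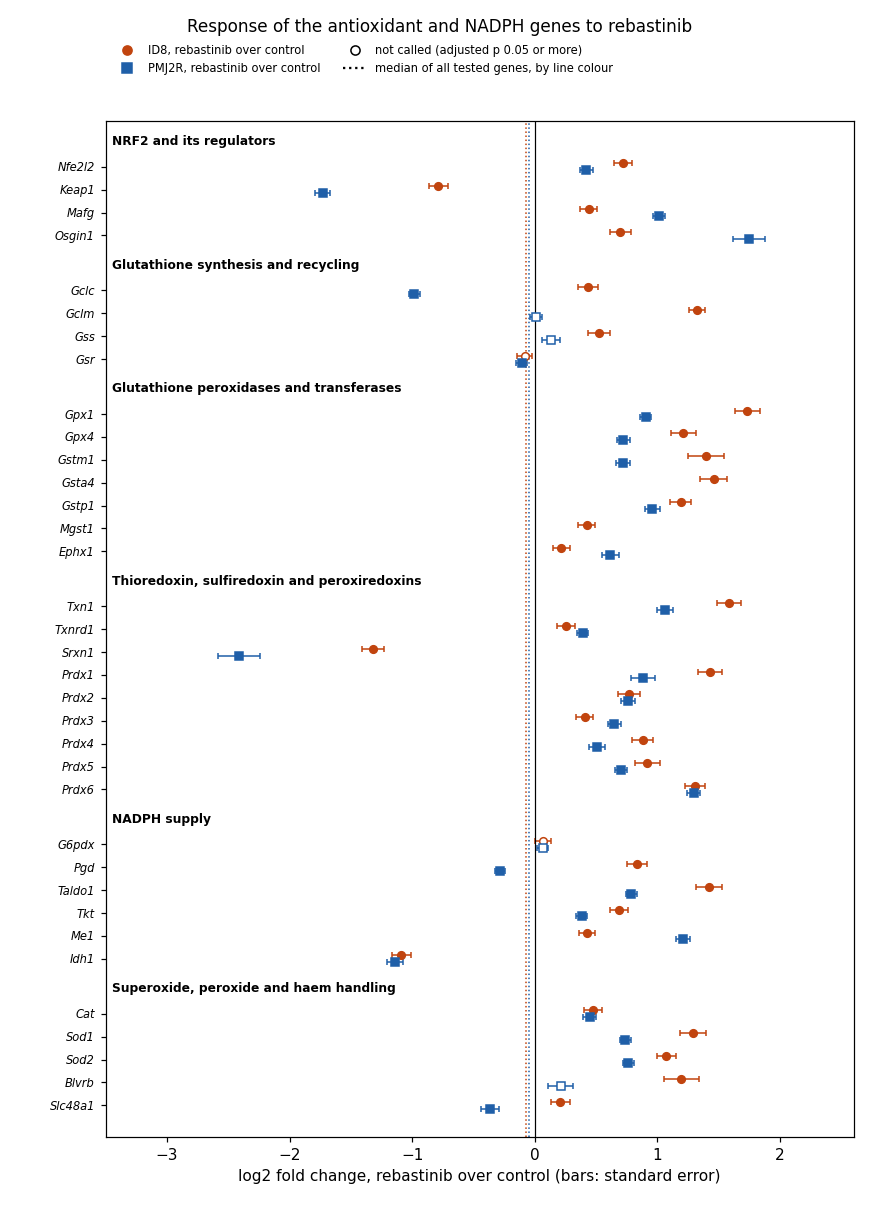
Log2 fold change of each antioxidant gene (horizontal axis, rebastinib over control) with its standard error, grouped by role, in ID8 (circles) and PMJ2R (squares); open symbols did not pass the test and dotted lines mark the median of all tested genes. Most symbols lie right of 0, with Keap1, Srxn1 and Idh1 left of it in both lines and Gclc, Pgd and Slc48a1 on opposite sides.

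Over all members, the summed level was 10247 to 12196 CPM in ID8 rebastinib libraries, against 5954 to 6491 CPM in ID8 control libraries. In PMJ2R it was 7385 to 7524 CPM with rebastinib and 5353 to 5507 CPM in control. These levels are scaled by TMM over all 12 libraries. As a plain share of counts, the members took 0.938 to 1.04% with rebastinib and 0.709 to 0.759% in control in ID8. In PMJ2R the shares were 0.610 to 0.619% with rebastinib and 0.608 to 0.652% in control, and those libraries overlapped.

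Across the lines, 22 members rose in both, which is 22 of the 28 that rose in ID8 among those tested in both lines and all 22 that rose in PMJ2R. As a share of the 33 members tested in both lines this was 66.7%, against 29.9% of 12398 genes. Keap1, Srxn1 and Idh1 fell in both (9.09%, against 30.2% of genes). Gclc, Pgd and Slc48a1 rose in ID8 and fell in PMJ2R (9.09%, against 5.58% of genes), with Slc48a1 at -0.23 in ID8 under library totals. G6pdx passed the test in neither line.

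Levels below are TMM-scaled CPM over all 12 libraries in the order of replicates 1, 2 and 3, and fold changes come from the fit of each line, which differed from the ratio of those levels by at most 0.0671 on the log2 scale. Under TMM scaling Nfe2l2 itself (ENSMUSG00000015839, chromosome 2, 75675513 to 75704641, GRCm38) rose in both lines and Keap1 fell in both. Nfe2l2 was at 289, 306 and 336 CPM in ID8 rebastinib libraries and 183, 191 and 193 CPM in ID8 control libraries (log2 fold change 0.72, SE 0.0717, adjusted p = 3.46e-07). In PMJ2R it was at 115, 128 and 129 CPM with rebastinib and 94.1, 95.8 and 100.4 CPM in control (log2 fold change 0.42, SE 0.0518, adjusted p = 6.09e-07), and under library totals this change was -0.14. In CPM the groups did not overlap in either line, and the response was smaller in PMJ2R (-0.36, SE 0.0918, edgeR adjusted p = 0.00209 for the difference). In TPM, a share of each library per exon length, Nfe2l2 did not rise. Its mean was 182 TPM with rebastinib and 193 TPM in control in ID8, where the libraries overlapped. In PMJ2R it was 69.7 TPM with rebastinib and 94.5 TPM in control.

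Keap1 (ENSMUSG00000003308, chromosome 9, 21229730 to 21239361) was the one regulator of the 4 that fell. Its level was 49.1, 41.7 and 49.4 CPM with rebastinib and 82.9, 78.99 and 80.8 CPM in control in ID8 (log2 fold change -0.79, SE 0.0790, adjusted p = 3.93e-07). PMJ2R libraries held 22.7, 25.3 and 24.7 CPM with rebastinib and 80.2, 83.7 and 87.7 CPM in control (log2 fold change -1.73, SE 0.0618, adjusted p = 2.38e-14). The rebastinib libraries of PMJ2R were the lowest, and the difference of the responses was -1.001 (adjusted p = 2.74e-08). Gm16754 overlaps 510 bases of its exons on the opposite strand, and the strand setting of the counting is not given.

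Mafg encodes a small MAF partner of NRF2, and Osgin1 a stress-induced growth inhibitor that is an NRF2 target. Mafg was at 156, 166 and 159 CPM with rebastinib and 80.1, 81.7 and 86.4 CPM in control in PMJ2R (log2 fold change 1.02, SE 0.0480, adjusted p = 9.36e-13). In ID8 it was at 120.3, 127 and 123 CPM with rebastinib and 94.5, 89 and 90.8 CPM in control (0.44, adjusted p = 2.51e-05, and 0.01 under library totals). The rebastinib libraries lay above the control libraries in both lines, and the PMJ2R response exceeded that of ID8 by 0.52 (adjusted p = 1.30e-05). Osgin1 was scarce in PMJ2R, at 9.59, 11.95 and 10.1 CPM with rebastinib and 3.39, 3.32 and 3.12 CPM in control (log2 fold change 1.75, SE 0.129, adjusted p = 5.17e-10). ID8 held 99.2, 91.1 and 94.7 CPM with rebastinib and 60.1, 51.2 and 64.9 CPM in control (0.70, adjusted p = 3.39e-06). Its difference of response was 0.99 (adjusted p = 6.76e-06). Both genes rose in both lines, with no overlap of groups, and more in the macrophage line.

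**Figure D2:**
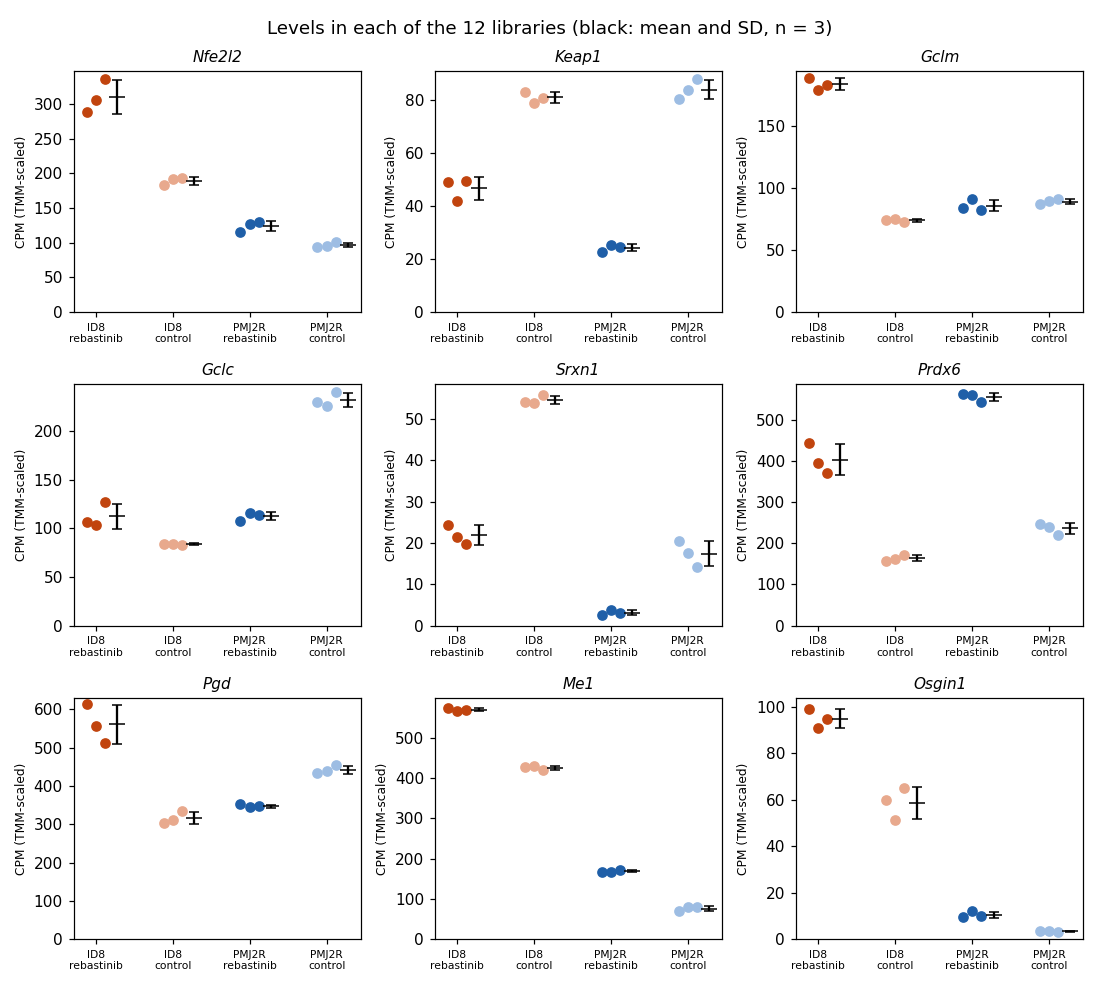
Level in CPM (vertical axis, TMM-scaled) of 9 members in each of the 12 libraries, with the mean and SD of each group in black (n = 3). Nfe2l2 lies higher and Keap1 lower with rebastinib in both lines, while Gclc and Pgd lie above control in ID8 and below it in PMJ2R.

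The genes of glutathione synthesis differed between the lines. Glutathione is made in an ATP-dependent step by glutamate-cysteine ligase, whose catalytic subunit is encoded by Gclc and modifier subunit by Gclm, and then by glutathione synthetase (Gss). With glutathione reductase (Gsr) these make 4 genes, of which 3 rose and none fell in ID8. In PMJ2R none of the 4 rose and Gclc and Gsr fell. The median of the 4 was 0.48 in ID8 and -0.05 in PMJ2R. Under library totals 1 rose and 1 fell in ID8, and none rose and 4 fell in PMJ2R. With trends over exon length and GC content removed, 3 rose and 1 fell in ID8, and 1 rose and 1 fell in PMJ2R.

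Gclc (ENSMUSG00000032350, chromosome 9, 77754535 to 77794485) was at 108, 116 and 114 CPM in PMJ2R rebastinib libraries and 229.8, 226 and 241 CPM in PMJ2R control libraries (log2 fold change -0.98, SE 0.0460, adjusted p = 8.31e-13). ID8 libraries held 107, 104 and 128 CPM with rebastinib and 84.4, 84.5 and 82.7 CPM in control (0.43, adjusted p = 0.000197), a rise that was 0.00 under library totals. The PMJ2R control libraries stood apart as the highest, and the PMJ2R rebastinib libraries lay within the range of the ID8 rebastinib libraries. Its difference between lines was -1.47 (SE 0.0977, adjusted p = 1.57e-11).

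Gclm (ENSMUSG00000028124, chromosome 3, 122245557 to 122270732), whose window is printed above, had the smallest p of the members that rose in ID8. It was at 188, 179 and 183 CPM with rebastinib and 74.1, 74.7 and 72.4 CPM in control in ID8, a 2.50-fold level (log2 fold change 1.32, SE 0.0651, adjusted p = 3.18e-10). PMJ2R libraries held 84, 90.9 and 82.4 CPM with rebastinib and 86.6, 89.2 and 90.8 CPM in control, which overlapped (0.01, SE 0.0521, adjusted p = 0.855). Library totals gave -0.55 and no expression filter -0.19 for this PMJ2R value. The response was -1.37 in PMJ2R relative to ID8 (SE 0.0844, adjusted p = 4.88e-12).

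Gss rose in ID8 (0.52, adjusted p = 8.27e-05, and 0.09 under library totals) and had 0.13 in PMJ2R (adjusted p = 0.0930). Gsr, which encodes the reductase that regenerates glutathione, was at 138, 136 and 141 CPM with rebastinib and 153, 160.2 and 152 CPM in control in PMJ2R (log2 fold change -0.11, SE 0.0469, adjusted p = 0.0425), a call lost without PMJ2R control library 2 or any 1 of the PMJ2R rebastinib libraries (adjusted p = 0.102 to 0.194) and under 5 of the 9 alternative fits. In ID8 it stood at 228, 218 and 224 CPM with rebastinib and 239, 236 and 235 CPM in control (-0.08, adjusted p = 0.240), and the groups did not overlap.

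Among the members, every tested glutathione peroxidase, transferase and detoxifying gene rose, 7 of 7 in ID8 and 5 of 5 in PMJ2R. Under library totals Mgst1 (-0.01) and Ephx1 (-0.22) lay below 0 in ID8. Genes of these families outside the members did not all rise, and Gpx3, given below, fell in both lines. With length and GC trends removed, 5 of the 7 were called in ID8, where Mgst1 and Ephx1 lost their calls, and 5 of 5 in PMJ2R. Gpx1 (ENSMUSG00000063856, chromosome 9, 108338903 to 108340343) encodes the cytosolic selenoprotein that reduces hydrogen peroxide, and Gpx4 the one that reduces lipid peroxides. Gpx1 was at 582, 534 and 452 CPM with rebastinib and 152, 144 and 177 CPM in control in ID8, the largest fold change among the members there (log2 fold change 1.73, SE 0.0997, adjusted p = 1.38e-09). It was at 307, 297 and 293 CPM with rebastinib and 173, 162 and 166 CPM in control in PMJ2R (log2 fold change 0.90, SE 0.0462, adjusted p = 2.71e-12). All rebastinib libraries lay above all control libraries, and the rise was smaller in PMJ2R (difference -0.89, adjusted p = 4.64e-07). Gpx4 rose by 1.21 in ID8 and 0.72 in PMJ2R, although 66.8% of its sequence, in words of 31 bases, is shared with pseudogenes.

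The transferases attach glutathione to electrophiles. Gstp1 was at 397, 359 and 320.0 CPM in ID8 rebastinib libraries and 153, 149 and 171 CPM in ID8 control libraries (log2 fold change 1.19, SE 0.0860, adjusted p = 1.27e-08). It was at 91.6, 83.96 and 84.5 CPM with rebastinib and 48.4, 46.6 and 44.6 CPM in control in PMJ2R (log2 fold change 0.96, SE 0.0593, adjusted p = 3.95e-11). The gene rose in both lines, and it shares 67.5% of its words with Gstp2, Gstp3 and a pseudogene, so the split of reads between these copies is uncertain. Its difference between lines (-0.29, adjusted p = 0.0266) was lost under 5 alternative fits (adjusted p = 0.103 to 0.608) and without ID8 control library 1 or 2, ID8 rebastinib library 1, PMJ2R control library 1 or PMJ2R rebastinib library 2 or 3 (0.0518 to 0.0701).

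Gsta4, which conjugates the lipid peroxidation product 4-hydroxynonenal, was read in ID8 alone. It was at 769, 590.1 and 556 CPM with rebastinib and 218, 225 and 257 CPM in control in ID8 (log2 fold change 1.46, SE 0.110, adjusted p = 1.99e-08). All 6 PMJ2R libraries were at 0 counts. Mgst1, a membrane-bound transferase, was at 177, 162 and 166 CPM with rebastinib and 122, 122 and 134 CPM in control in ID8 (0.42, adjusted p = 6.11e-05), a change of -0.01 under library totals and of 0.11 (adjusted p = 0.0986) with length and GC trends removed. PMJ2R held 6 counts over the rebastinib libraries and 4 over the control libraries.

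Gstm1 rose by 1.40 in ID8 and 0.72 in PMJ2R; 34.3% of its words occur in other genes of its family. Ephx1, the microsomal epoxide hydrolase, was at 39.1, 36.5 and 33.5 CPM with rebastinib and 23.99, 24.7 and 25.6 CPM in control in PMJ2R (log2 fold change 0.62, SE 0.0717, adjusted p = 2.77e-07, and 0.06 under library totals). In ID8 it was at 143, 130.3 and 127 CPM with rebastinib and 111, 113 and 121 CPM in control (0.22, adjusted p = 0.0119), a call lost without ID8 control library 1 or 2 (adjusted p = 0.0699 and 0.0604), turned to -0.22 under library totals, and at 0.04 (adjusted p = 0.506) with length and GC trends removed. The PMJ2R response was higher by 0.34 (adjusted p = 0.00610).

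Thioredoxin, thioredoxin reductase and all 6 peroxiredoxins rose in both lines, and Srxn1 fell in both. Peroxiredoxins reduce peroxides with a reactive cysteine, thioredoxin (Txn1) reduces that cysteine with electrons from NADPH passed on by thioredoxin reductase (Txnrd1), and sulfiredoxin (Srxn1) repairs peroxiredoxins that have been over-oxidised. Under library totals Txnrd1 and Prdx3 lay below 0 in ID8 (-0.18 and -0.03), and Txnrd1 and Prdx4 in PMJ2R (-0.17 and -0.05); the median of the 9 genes was 0.88 in ID8 and 0.70 in PMJ2R under TMM scaling.

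Srxn1 (ENSMUSG00000032802, chromosome 2, 152105516 to 152111376) was the most reduced of the 35 genes in both lines. It was at 24.4, 21.5 and 19.6 CPM with rebastinib and 54.2, 53.9 and 55.7 CPM in control in ID8, 2.50-fold lower (log2 fold change -1.32, SE 0.0887, adjusted p = 6.14e-09). PMJ2R held 2.67, 3.78 and 2.93 CPM with rebastinib and 20.5, 17.6 and 14.2 CPM in control, 5.32-fold lower (log2 fold change -2.41, SE 0.167, adjusted p = 6.55e-10). Within each line no rebastinib library reached a control library, and the fall was deeper in PMJ2R (difference -1.15, edgeR adjusted p = 2.30e-05).

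Txn1 was at 749, 681 and 573 CPM with rebastinib and 217, 209.7 and 244 CPM in control in ID8 (log2 fold change 1.59, SE 0.0968, adjusted p = 2.43e-09), and it rose by 1.06 in PMJ2R. Prdx1 was at 1346, 1212 and 1040.1 CPM with rebastinib and 417, 439 and 487 CPM in control in ID8 (log2 fold change 1.43, SE 0.0974, adjusted p = 7.27e-09), and it rose by 0.88 in PMJ2R. ID8 rebastinib library 3 was the lowest of its group for each. Prdx6, a peroxiredoxin that uses glutathione in place of thioredoxin, was at 563, 562 and 545 CPM with rebastinib and 248, 241 and 222 CPM in control in PMJ2R (log2 fold change 1.29, SE 0.0520, adjusted p = 1.06e-13). In ID8 it was at 445, 395 and 372 CPM with rebastinib and 157, 162 and 173 CPM in control (log2 fold change 1.31, SE 0.0784, adjusted p = 2.09e-09). Rebastinib libraries of both lines lay above control libraries, and the difference between lines did not pass the test (-0.07, SE 0.0945, adjusted p = 0.596).

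Under TMM scaling the other peroxiredoxins rose by 0.41 (Prdx3) to 0.92 (Prdx5) in ID8 and by 0.51 (Prdx4) to 0.76 (Prdx2) in PMJ2R. Prdx3, the mitochondrial form, became -0.03 in ID8 once trends over exon length and GC content were removed. Txnrd1 rose by 0.26 in ID8 and 0.39 in PMJ2R before the turn under library totals given above. Exons of Prdx2 overlap Junb and Rnaseh2a, and those of Prdx5 overlap Trmt112, on the opposite strand.

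The NADPH genes split by enzyme. The pentose phosphate pathway makes NADPH with glucose-6-phosphate dehydrogenase (G6pdx) and phosphogluconate dehydrogenase (Pgd), and its carbon is recycled by transaldolase (Taldo1) and transketolase (Tkt); malic enzyme (Me1) and Idh1 make NADPH outside it. In ID8 4 of the 6 rose and Idh1 fell, with Me1 at -0.01 under library totals. In PMJ2R 3 rose (Taldo1, Tkt and Me1, with Tkt at -0.17 under library totals) and Idh1 and Pgd fell. Under library totals 3 rose and 2 fell in ID8, and 2 rose and 4 fell in PMJ2R.

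G6pdx, the entry enzyme, is given in every library although its values did not select it. It was at 256, 249 and 258 CPM with rebastinib and 238, 235 and 257 CPM in control in ID8 (0.07, SE 0.0655, adjusted p = 0.360). In PMJ2R it was at 320.4, 320.2 and 305 CPM with rebastinib and 323, 305 and 316 CPM in control (0.06, SE 0.0451, adjusted p = 0.193). The groups overlapped in both lines, and the value turned to -0.37 in ID8 and -0.49 in PMJ2R under library totals. With length and GC trends removed it reached 0.26 in PMJ2R and passed the test.

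Pgd (ENSMUSG00000028961, chromosome 4, 149149991 to 149166771) moved in opposite directions. PMJ2R held 352, 344 and 347 CPM with rebastinib and 433, 438 and 454 CPM in control (log2 fold change -0.29, SE 0.0419, adjusted p = 5.48e-06), which became -0.08 (adjusted p = 0.0551) with length and GC trends removed. In ID8 it was at 615, 557 and 511 CPM with rebastinib and 303, 309.9 and 334 CPM in control (log2 fold change 0.83, SE 0.0796, adjusted p = 2.23e-07). Neither line's groups overlapped, and the difference was -1.18 (SE 0.0916, adjusted p = 2.27e-10). Taldo1 was at 347, 359 and 348 CPM with rebastinib and 217, 214 and 207 CPM in control in PMJ2R (log2 fold change 0.79, SE 0.0453, adjusted p = 1.46e-11), and it rose by 1.42 in ID8. Tkt rose by 0.69 in ID8 and, under TMM scaling, by 0.38 in PMJ2R.

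Me1 (ENSMUSG00000032418, chromosome 9, 86581371 to 86695953) rose more in PMJ2R. It was at 167, 166 and 171 CPM with rebastinib and 69.1, 78.4 and 79.99 CPM in control there (log2 fold change 1.21, SE 0.0537, adjusted p = 4.04e-13). ID8 held 574, 567 and 569 CPM with rebastinib and 428, 429 and 419 CPM in control (0.43, adjusted p = 2.60e-05). The PMJ2R libraries with rebastinib still lay below all ID8 libraries, and the difference of response was 0.72 (adjusted p = 1.27e-07). A copy on the genome, Gm7049, and others share 42.2% of the words of Me1.

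Idh1, the cytosolic isocitrate dehydrogenase, fell in both lines. It was at 73.8, 87.99 and 84.9 CPM with rebastinib and 169.8, 173 and 183 CPM in control in ID8 (log2 fold change -1.09, SE 0.0775, adjusted p = 1.10e-08). It was at 29.04, 28.3 and 27.9 CPM with rebastinib and 67.7, 67.9 and 60.5 CPM in control in PMJ2R (log2 fold change -1.14, SE 0.0683, adjusted p = 2.49e-11). The groups did not overlap, and the difference of the responses did not pass the test (-0.11, SE 0.103, adjusted p = 0.40).

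Both superoxide dismutases among the members rose in both lines, and so did catalase, which removes hydrogen peroxide. Catalase (Cat) was at 0.47 in ID8 and 0.45 in PMJ2R, but at 0.04 in ID8 and -0.11 in PMJ2R under library totals. Sod2, the mitochondrial manganese enzyme, was at 119, 111 and 105 CPM with rebastinib and 52.6, 51.3 and 55.7 CPM in control in ID8 (log2 fold change 1.07, SE 0.0744, adjusted p = 8.39e-09). It was at 252, 233 and 236 CPM with rebastinib and 149, 147 and 147 CPM in control in PMJ2R (log2 fold change 0.76, SE 0.0468, adjusted p = 3.58e-11). Sod1, the cytosolic copper and zinc enzyme, was at 531, 518 and 531 CPM with rebastinib and 342, 332 and 314 CPM in control in PMJ2R (log2 fold change 0.74, SE 0.0479, adjusted p = 7.71e-11), and it rose by 1.29 in ID8. The rise of each dismutase was smaller in PMJ2R, with a difference of -0.37 for Sod2 and -0.61 for Sod1 (adjusted p = 0.00112 and 0.000121).

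Of the haem genes, Slc48a1 encodes a haem transporter of endosomes and lysosomes, and Blvrb a biliverdin reductase. Slc48a1 was at 28.6, 28.8 and 25.8 CPM with rebastinib and 34.9, 37.4 and 39.6 CPM in control in PMJ2R (log2 fold change -0.37, SE 0.0705, adjusted p = 0.000115), which became -0.13 (adjusted p = 0.0750) with length and GC trends removed. In ID8 it was at 224, 199 and 189 CPM with rebastinib and 173, 172 and 187 CPM in control (0.21, adjusted p = 0.0201), turned to -0.23 under library totals, and lost its call without ID8 control library 1 or 2 or ID8 rebastinib library 1 (adjusted p = 0.0577 to 0.0959). The difference was -0.63 (adjusted p = 2.05e-05). Blvrb rose by 1.20 in ID8 and had 0.21 in PMJ2R (adjusted p = 0.0605), which turned to -0.34 under library totals and passed the test without PMJ2R rebastinib library 3 (adjusted p = 0.0344).

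The interaction of treatment and line set the responses against each other. Of the 33 members tested in both lines, 20 had a lower response in PMJ2R and 4 a higher one (Me1, Osgin1, Mafg and Ephx1). The other 9 did not pass the test. Lower means a lower log2 fold change, so Keap1 and Srxn1, which fell further in PMJ2R, are among the 20. The median difference of the 33 was -0.37, beside -0.10 over 16566 genes, of which 52.4% were called, 21.8% higher and 30.6% lower. Only 12398 genes were tested in both lines, so these 16566 also hold genes that were not. By role, 4 of 9 thioredoxin and peroxiredoxin genes, 4 of 5 superoxide, peroxide and haem genes and 3 of 4 glutathione synthesis and recycling genes had the lower response, and none of these a higher one. Of the NADPH genes 1 was higher and 3 lower, of the glutathione peroxidases and transferases 1 was higher and 4 lower, and of NRF2 and its regulators 2 were higher and 2 lower (median 0.08). The differences of Prdx5 (-0.27) and Prdx3 (0.19) did not pass the test, but Prdx5 passed without ID8 control or rebastinib library 3 (adjusted p = 0.0202 and 0.00107), and Prdx3 without PMJ2R control library 1 (0.0426). Scaling by RLE size factors moved the median of all genes in this contrast by 0.12.

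**Figure D3:**
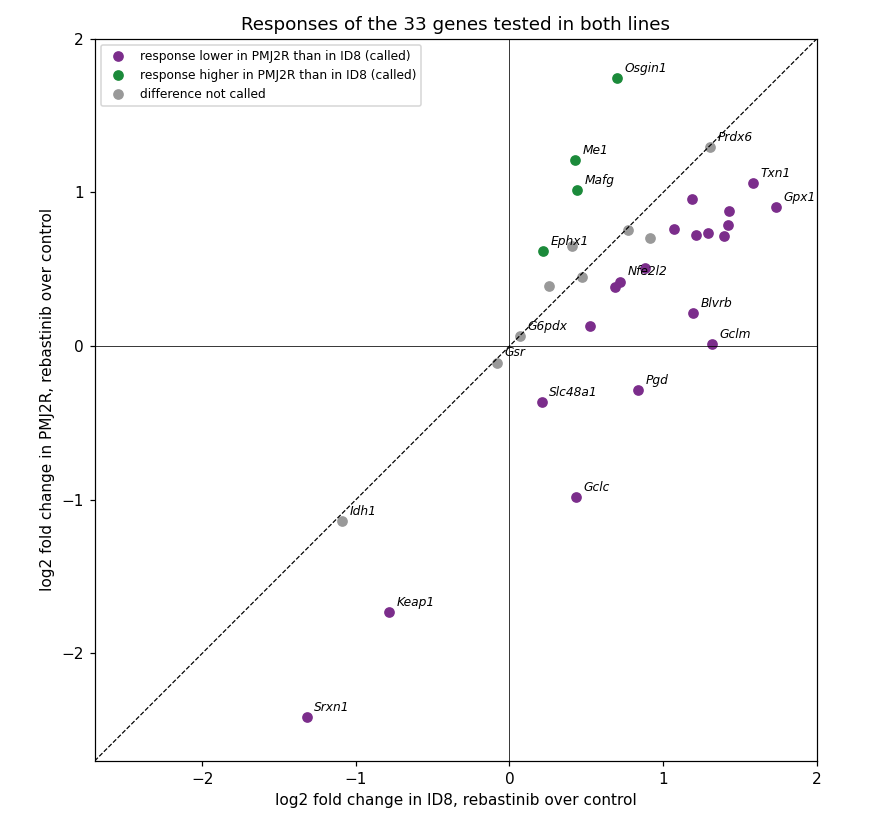
Log2 fold change in PMJ2R (vertical axis) against that in ID8 (horizontal axis), rebastinib over control, for the 33 members tested in both lines, coloured by the call of the difference between lines. Gclm, Gclc, Pgd, Keap1 and Srxn1 lie well below the dashed line of equal response, and Osgin1, Me1 and Mafg above it.

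Exon length moved with the response. Tested genes were split by exon length into 3 classes of near-equal size. The shortest class had a median log2 fold change of 0.33 in ID8 and 0.25 in PMJ2R, and the longest class one of -0.31 in ID8 and -0.21 in PMJ2R. The members were shorter than most tested genes, with a median of 2782 bases against 3859 in ID8. The median of the members lay above that of all genes in each class, with values of 1.05, 0.43 and 0.69 from shortest to longest in ID8 and 0.72, 0.32 and 0.38 in PMJ2R. With trends over length and GC content removed, 27 members rose and 4 fell in ID8 (median 0.75, beside -0.01 over all genes), and 25 rose and 4 fell in PMJ2R (median 0.62, beside -0.05).

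Related genes outside the 35 were taken from 5 lists. Over all tested genes, 38.4% rose and 42.0% fell in ID8 (median -0.07), and 40.1% rose and 43.6% fell in PMJ2R (median -0.05). A gene named below for one line had a small p there, and it may have passed the test in the other line too. Among other NRF2 targets, 16 of 24 tested genes rose and 2 fell in ID8 (median 0.58), and 12 of 18 rose and 5 fell in PMJ2R (median 0.65). Under library totals, 12 rose and 6 fell in ID8, and 7 rose and 6 fell in PMJ2R. The quinone reductase gene Nqo1, a standard NRF2 reporter, was at 386, 346 and 326 CPM with rebastinib and 39.5, 40.8 and 45 CPM in control in ID8. In PMJ2R it was under 1 CPM in every library (0.28, adjusted p = 0.452). The haem oxygenase gene Hmox1 rose in both lines, by 1.86 in ID8 and 1.88 in PMJ2R, with a difference of -0.03 (SE 0.0917, adjusted p = 0.810). Slc7a11, the cystine carrier that feeds glutathione synthesis, was at 89.8, 86.1 and 92.97 CPM with rebastinib and 11.9, 12.03 and 12.1 CPM in control in PMJ2R (log2 fold change 2.96, SE 0.0628, adjusted p = 5.73e-17), and had -0.08 in ID8 (adjusted p = 0.391). The aldehyde dehydrogenase gene Aldh3a1 rose by 4.51 in ID8. The genes with the smallest p among those that fell were Aox1 (-2.54) and Gsta3 (-1.64) in ID8, and Abcc4 (-1.47, but 0.69 and higher in ID8) and Cbr1 (-0.49) in PMJ2R. Cbr1 rose by 0.34 in ID8, but had -0.09 there under library totals.

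Of the regulators of NRF2 beyond the members, 5 of 11 rose and 5 fell in ID8 (median 0.15), near the shares over all genes, and 7 of 12 rose and 5 fell in PMJ2R (median 0.61). Under library totals 3 rose and 6 fell in ID8, and 6 rose and 6 fell in PMJ2R. Mafk, another small MAF partner, rose by 0.94 in ID8 and 2.08 in PMJ2R. Bach1, a repressor that competes with NRF2 for its elements, was at 110.5, 111 and 115 CPM with rebastinib and 36.7, 37.7 and 34.2 CPM in control in PMJ2R (log2 fold change 1.69, SE 0.0570, adjusted p = 1.09e-14). Rbx1, a subunit of the ligase that KEAP1 serves, rose by 1.06 in ID8. Genes that fell were Nfe2l1 (-1.15) and Gsk3b (-0.85) in ID8, and Btrc (-1.36) and Dpp3 (-1.14) in PMJ2R.

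Of other glutathione genes, 14 of 22 rose and 6 fell in ID8 (median 0.52), and 11 of 23 rose and 7 fell in PMJ2R (median 0.00). Under library totals 9 rose and 8 fell in ID8, and 5 rose and 12 fell in PMJ2R. Anpep (2.32), a membrane aminopeptidase, rose in ID8. Gsto1, an omega-class transferase, rose by 2.25 in ID8 and 0.67 in PMJ2R. Slc3a2, the partner chain of the cystine carrier, rose by 0.48 in ID8 and 1.44 in PMJ2R, and Glrx5, a mitochondrial glutaredoxin, by 2.13 in ID8 and 1.40 in PMJ2R. Chac1, which breaks down glutathione, fell in ID8 to 3.32, 3.30 and 3.02 CPM with rebastinib, against 76.8, 78.5 and 85.5 CPM in control. The secreted peroxidase gene Gpx3 fell in both lines, to 4 counts over the rebastinib libraries against 117 over the control libraries in ID8, and to 1 count against 69 in PMJ2R, and Gstt3 fell in PMJ2R (-1.22).

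In the list of other thioredoxin, superoxide dismutase and methionine sulfoxide reductase genes, 9 of 13 rose and 2 fell in ID8 (median 0.83), and 8 of 11 rose and 3 fell in PMJ2R (median 0.56). Under library totals 6 rose and 2 fell in ID8, and 4 rose and 3 fell in PMJ2R, where the median became -0.002. Txn2, the mitochondrial thioredoxin, rose by 1.29 in ID8 and 1.11 in PMJ2R, and the extracellular dismutase gene Sod3 rose by 1.94 in ID8. Txnip, whose protein binds and inhibits thioredoxin, fell in ID8 (-1.35) and rose in PMJ2R (0.93). The remaining genes that fell with the smallest p were Msrb3 (-0.92) in ID8, and Nxn (-1.14, but 1.12 and higher in ID8) and Msrb2 (-0.98) in PMJ2R. Msrb2 rose by 0.42 in ID8, but had -0.01 there under library totals.

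Other NADPH and pentose phosphate genes rose in 10 of 19 cases and fell in 6 in ID8, and rose in 11 of 17 and fell in 4 in PMJ2R (medians 0.52 and 0.45). Under library totals 8 rose and 9 fell in ID8, and 6 rose and 9 fell in PMJ2R. Mthfd1 (0.73), of folate metabolism, and the NAD kinase gene Nadk (0.66) rose in ID8, while Aldh1l2 (-2.28) and the mitochondrial malic enzyme gene Me2 (-0.61) fell, although in PMJ2R Me2 rose by 0.69 and Aldh1l2 by 0.25 (-0.31 under library totals). Mthfd2 (1.71), also of folate metabolism, and the ribose-phosphate isomerase gene Rpia (1.16) rose in PMJ2R, while the mitochondrial NAD kinase gene Nadk2 (-1.27) and H6pd (-1.37), which starts a pentose pathway in the endoplasmic reticulum, fell.

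Without drug, 15 of 35 members differed between the lines, a share near that of all genes. In PMJ2R control against ID8 control, 3 of 35 members were higher and 12 lower at an adjusted p under 0.05 and at least 2-fold, against 18.1% and 25.6% of 15924 genes (43.7% in all). The control libraries of the lines overlapped for 5 of 35 members, none of them called. Over all genes, called or not, they did not overlap for 83.8%. Per length of all exons of a gene merged, in TPM, Txn1 led in both lines, at 872 ± 107 TPM in PMJ2R control and 825 ± 35.6 TPM in ID8 control (SD, n = 3 each). In PMJ2R it was followed by Prdx1 (627 ± 105 TPM) and then by Tkt (464 ± 11.8 TPM), Gpx1 (429.6 ± 19.2 TPM) and Prdx3 (426 ± 40.5 TPM), of which Prdx3 overlapped both Tkt and Gpx1 within their SD. In ID8 it was followed by Gsta4 (714 ± 40.4 TPM), then by Gpx4 (577 ± 27.4 TPM) and Prdx1 (571 ± 29.9 TPM), which overlapped within their SD. Merged exons can be far longer than a transcript, as for Tkt (7355 bases), so this order may not hold per transcript.

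The 3 higher in PMJ2R were Gstm1, Sod2 and Gclc. Gstm1 was at 36.8, 36.8 and 38.3 CPM in PMJ2R control and 8.40, 7.48 and 8.82 CPM in ID8 control (log2 fold change 2.07, SE 0.0793, adjusted p = 2.61e-15). Sod2 had a log2 fold change of 1.36 and Gclc one of 1.36, from the control libraries given above. Those lower included Nfe2l2 (-1.07, and -0.99, under the 2-fold minimum, with library totals), Osgin1 (-4.27), Me1 (-2.60), Slc48a1 (-2.36) and Ephx1 (-2.33). The rest of the 12 were Gpx4, Gstp1, Srxn1, Idh1, Prdx2, Gsta4 and Mgst1, of which Gpx4, Gstp1, Srxn1, Idh1 and Prdx2 lay between -1.96 and -1.22.

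Gsta4 had 0 counts over the PMJ2R control libraries and 18721 over the ID8 control libraries, so that ID8 control was at least 6939-fold higher, taking 3 counts over the group as the limit of a 0. Mgst1 had 4 counts in PMJ2R control and 10118 in ID8 control, a ratio of ID8 over PMJ2R of 2813 after allowing for library totals (95% counting interval 1098 to 10326). Keap1 did not pass the test (-0.06, adjusted p = 0.377), and nor did Gpx1, Txn1 and Prdx1 (-0.03, 0.03 and 0.09).

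**Figure D4:**
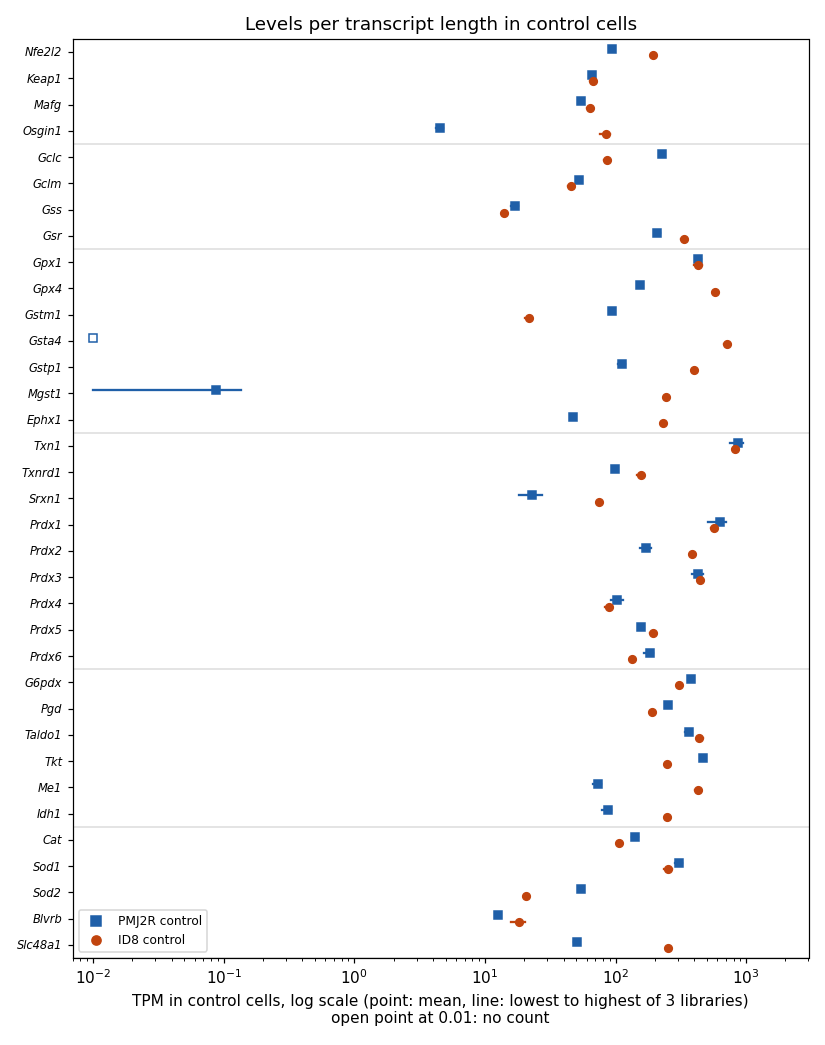
Level per length of merged exons in control cells (horizontal axis, TPM, log scale) of the 35 members in PMJ2R (squares) and ID8 (circles), as the mean with a line from the lowest to the highest of 3 libraries. The widest gaps are those of Gsta4, Mgst1 and Osgin1, all lower in PMJ2R.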

How the data were processed

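Messenger RNA was sequenced from 12 libraries of 2 mouse cell lines, 3 per group, grouped by title. Nothing in the labels tells whether a replicate is its own culture; p-values therefore reflect the scatter among libraries, possibly of technical origin. The authors deposited raw counts per gene. Per the submitters' processing notes, the build was GRCm38 and the tools were STAR 2.6.1c, featureCounts, FastQC and DESeq2, with no roles stated. The sources used here state neither the strand setting nor how reads with several matches were handled. Symbols, positions and exon lengths came from GENCODE vM21; 181 identifiers, with 0.00261% of counts, had no symbol and stayed in the tests.

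Each comparison was tested over all genes with edgeR 4.0.16 in R 4.3.3 (quasi-likelihood test, TMM scaling, default expression filter, Benjamini-Hochberg adjustment at 0.05; in control cells also at least 2-fold). TPM used the length of all exons of a gene merged. Intervals and floors cover counting error only. Genes that share sequence or exons with others are uncertain; shared words of 31 bases are given. Alternatives were RLE factors, library totals, other filters, DESeq2 1.42.0, limma-voom 3.58.1, a replicate block, removal of length and GC trends, and leaving out each library. The script was tested on simulated data in which few genes changed, equally in both directions. The scaling was therefore not tested under changes as broad as those found here. No replicates agreed within sampling noise.

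The members and lists were chosen with earlier results of these data known. Values in every library are given for the 8 higher and 8 lower called members with the smallest p per rebastinib comparison, for up to 6 per direction in the difference of response, for up to 5 per direction by fold change in control cells, and for Nfe2l2 and Keap1. G6pdx is outside this rule and was added after its values were seen. From each further list up to 2 higher and 2 lower called genes with the smallest p are named per rebastinib comparison, with Nqo1 and Hmox1 always.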

Additional observations from a re-analysis of the deposited data

Results flagged for a closer look

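The response to rebastinib differed between the lines for 24 members, by the test of the difference itself (interaction of treatment and line over 12 libraries, edgeR adjusted p under 0.05, n = 3 per group), and so it did for 52.4% of the 16566 genes tested. Values are log2 fold changes in PMJ2R minus those in ID8, so a negative value is a lower log2 fold change in PMJ2R. For Keap1 and Srxn1 it was a deeper fall.

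Gclc at -1.47 and Gclm at -1.37, of glutathione synthesis, had the lowest values, and Gss was at -0.45. The pentose phosphate genes held Pgd at -1.18, Taldo1 at -0.69 and Tkt at -0.36, while Me1 was at 0.72. Among regulators, Keap1 was at -1.001 and Nfe2l2 at -0.36, with Osgin1 at 0.99 and Mafg at 0.52. Peroxidases and transferases included Gpx1 at -0.89, Gstm1 at -0.73, Gpx4 at -0.55 and Gstp1 at -0.29, with Ephx1 at 0.34.

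In the thioredoxin system Srxn1 was at -1.15, Prdx1 at -0.60, Txn1 at -0.58 and Prdx4 at -0.43. The last group held Blvrb at -1.04, Slc48a1 at -0.63, Sod1 at -0.61 and Sod2 at -0.37. Under TMM scaling Gclc, Pgd and Slc48a1 were called in opposite directions in the lines (9.09% of members tested in both, against 5.58% of genes). The ID8 rises of Gclc and Slc48a1 were not seen under library totals. With length and GC trends removed, the PMJ2R falls of Pgd and Slc48a1 lost their calls. Srxn1 and Keap1 fell in both lines. No group had enough libraries to test for a single outlying one.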

How the results depend on the processing

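Counts of members kept their size in most settings. Across the 9 alternative fits, the number that rose ran from 20 to 30 in ID8 and 15 to 25 in PMJ2R, and the number that fell from 3 to 8 in ID8 and 4 to 14 in PMJ2R. Library totals gave the 8 and the 14. Removal of length and GC trends, alone or with the replicate block, gave the 4 in PMJ2R, against 7 in the main analysis. Leaving out 1 library at a time gave 28 to 30 higher and 3 lower in ID8, 22 to 23 higher and 6 to 7 lower in PMJ2R, 4 to 5 higher and 19 to 21 lower for the difference of response, and 3 higher and 12 lower in control cells.

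Signs reversed under library totals in ID8 for Mgst1 (-0.011), Ephx1 (-0.22), Txnrd1 (-0.18), Prdx3 (-0.028), G6pdx (-0.37), Me1 (-0.0065) and Slc48a1 (-0.23). In PMJ2R they did so for Nfe2l2 (-0.14), Gclm (-0.55), Gss (-0.43), Txnrd1 (-0.17), Prdx4 (-0.049), G6pdx (-0.49), Tkt (-0.17), Cat (-0.11) and Blvrb (-0.34). That setting moved the median of all genes by -0.43 and -0.56, which is built into it. With no filter, Gclm (-0.19) and G6pdx (-0.14) reversed in PMJ2R; with length and GC trends removed, Prdx3 reversed in ID8 (-0.029, and -0.028 with the replicate block), and the cause was not tested.

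Deviations of same-numbered libraries correlated at -0.17 to -0.02 in ID8 and 0.01 to 0.07 in PMJ2R. With 3 libraries per group, such values cannot decide whether replicate numbers pair the samples. The replicate block gave 29 members higher and 3 lower in ID8, and 22 higher and 6 lower in PMJ2R. Under the replicate block, 20 members were lower and 4 higher in the difference of response. Depth limits only Gsta4 and Mgst1 in PMJ2R.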
